A study of Mus musculus with 8 samples.

Results

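The response of wild-type mouse macrophages to 24 h of lipopolysaccharide (LPS) was described from 2 of the 8 arrays of the series, the wild-type array after 24 h of LPS and the unstimulated wild-type array, with 1 array per group. Of the 12394 genes named on the array, 6965 were compared, namely those whose brighter array of this pair lay above the median of all values, and the other 5429 were too dim on both arrays. The cells were macrophages grown for 7 days from bone marrow of C57BL/6 mice aged 6 to 8 weeks, in medium with 10% heat-inactivated serum and the growth factor M-CSF. The unstimulated cells were harvested 24 h after plating and had received no LPS. The stimulated cells received smooth LPS at 1 µg/ml and were harvested 24 h later. How long the stimulated cells had been plated is not on record, so the 2 groups are not known to match in time since plating. The part of time in culture in the differences and time courses below was not tested. Neither group received EGTA, a chelator of calcium that other samples of the series were given, at 2 mM in the 24 h sample, and both carried an intact Cd14 gene. The further arrays set beside them below were wild-type cells after 6 h of LPS, wild-type cells after 24 h of LPS with EGTA, and CD14-deficient cells without LPS and after 24 h of it, all grown in the same way. The sources used here do not give whether the cultures came from separate or pooled animals. Because each group had 1 array, no difference below has a replicate check, no p-value is given, and the number of arrays limits the precision.

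LPS, a component of the outer membrane of Gram-negative bacteria, is bound by CD14 and passed to the receptor complex of TLR4 and MD-2. The receptor signals through the adaptor MyD88 to NF-kB and MAP kinases and, after internalisation, through TRIF to IRF3, which switches on the interferon beta gene. Secreted interferon beta acts back on the macrophage through STAT factors, so that a primary wave of cytokine genes is followed by an interferon-dependent wave and by feedback inhibitors that end the signal. By 24 h a macrophage is classically past the peak of the primary wave, and LPS is known to halt the proliferation that M-CSF drives in these cells.

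The cells carried the marks of macrophages on both arrays. All 11 measured macrophage markers, among them Csf1r, the receptor of M-CSF, and Adgre1, which encodes the surface protein F4/80, were above the array median both before and after LPS, and their summed normalised intensity was 87948 and 90038. All 8 measured dendritic cell markers, Flt3 and Zbtb46 included, lay at the floor of 38.4 on both arrays, the level below which intensities were not distinguished. The same held for 9 of 10 T and NK cell markers, and no B cell marker was above the median. Of 9 neutrophil markers, S100a8 (138 before and 432 after LPS) and Mmp8 (514 and 98.8) were measured, while S100a9, Mpo and Elane were at the floor. RNA integrity numbers were 9.6 and 9.5, and labelled cRNA yields 53.1 and 52 µg from 0.3 µg of RNA. The ratio of 3' to 5' actin probe sets was 1.19 and 1.11 and that of Gapdh 0.73 and 0.69. In bulk RNA of this kind, fewer cells of a type and less RNA per cell cannot be told apart.

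At 24 h, 740 genes were at least 2-fold higher than in unstimulated cells, which is 10.6% of those compared, 742 were at least 2-fold lower, which is 10.7%, and 5483 were neither. On the normalised scale used here the response was lopsided in size though not in number. Among the genes at least 4-fold apart, 225 were higher and 85 lower, and at 8-fold or more the counts were 86 and 6. Log2 differences ran from -3.54 to 6.55 with a median of -0.07, and 95% of genes lay between -1.71 and 2.20. On the unstimulated array 89 of the higher genes were at the floor, and 71 of the lower genes were at the floor after LPS. Their folds are lower bounds and are given as "at least". A gene was compared only with its brighter array above 88.2, more than 2-fold over the floor of 38.4. Every compared gene with 1 array at the floor was therefore called by the filter alone, here and in the list counts below.

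The balance of higher and lower genes depends on how the arrays are brought to a common scale, because the deposited median intensity was 113 on the unstimulated array and 67.2 on the 24 h array. Quantile normalisation, used throughout, put 49.9% of the called genes on the higher side. Without any scaling the counts were 365 higher (5.17% of those compared) and 2199 lower (31.1%), so that 14.2% of the called genes were higher, and the median difference was -0.66. With equal medians 942 genes were higher and 605 lower (60.9% of the called genes higher), with a median difference of 0.12. With equal trimmed means the counts were 587 and 1096 (34.9% higher) and the median -0.24. No gene called higher or lower turned its sign under these scalings. Calls start at a log2 difference of 1 and the median of all genes moved by less than that, so that little turning was possible. The list medians whose sign these scalings turned are named where they are given.

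**Figure D1:**
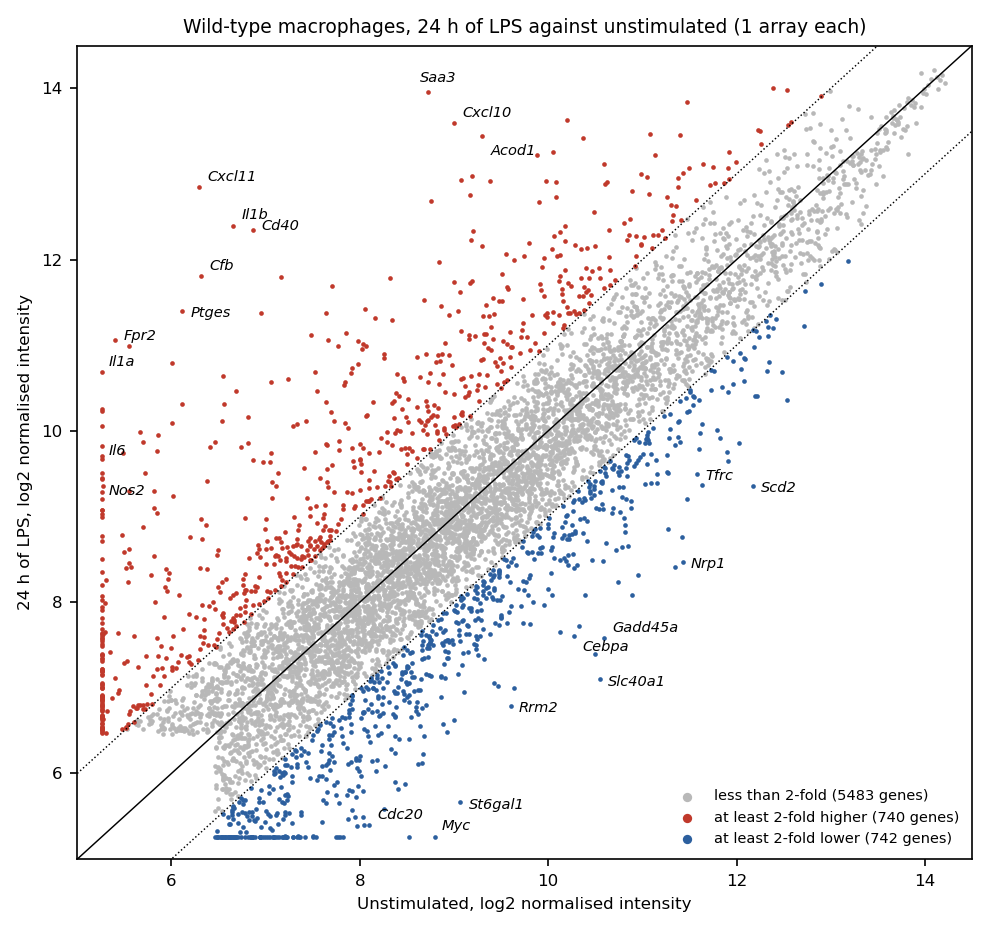
Log2 normalised intensity of each of the 6965 compared genes on the unstimulated wild-type array (horizontal axis) and on the array after 24 h of LPS (vertical axis), with the 740 genes at least 2-fold higher in red and the 742 at least 2-fold lower in blue; the solid line marks equality and the dotted lines a 2-fold difference. Cxcl11, Il1b and Fpr2 lie farthest above the line among genes measured on both arrays, and the columns of points at the left and lower edges are genes at the floor.

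Among genes measured above the floor on both arrays, the 20 largest increases ran from 16.9-fold to 93.9-fold. Of these, 17 belonged to the 42 gene lists described below, which held 758 of the 6965 compared genes. The lists were chosen with earlier results of these data known, so that this share is no result. Cxcl11, a chemokine that attracts activated T cells, stood at 78.5 without LPS and 7371 with it. Il1b, the gene of the fever-inducing cytokine interleukin-1 beta, stood at 101 and 5388. Fpr2, which encodes a phagocyte receptor for formylated bacterial peptides, stood at 42.4 and 2136, a 50.4-fold difference over a value close to the floor and so an imprecise one. The 20 largest decreases were smaller, from 5.98-fold to 10.9-fold, and mixed in kind, and 9 of them belonged to the 42 lists. Slc40a1, the gene of ferroportin, the only known exporter of iron from cells, stood at 1499.7 without LPS and 137 with it. St6gal1, a sialyltransferase of the Golgi, stood at 536 and 50.6, and Nrp1, a co-receptor for semaphorins and VEGF, at 2753 and 355. Both of these were more than 7-fold lower with LPS. Myc, the growth-promoting transcription factor, had the largest bound, 445 against the floor, at least 11.6-fold lower.

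Genes of the recognition machinery were within 2-fold or higher. Of 17 genes for LPS receptors and adaptors compared, 7 passed 2-fold on the higher side and none on the lower side, with a median log2 difference of 0.59 against -0.07 over all genes. The receptor for LPS itself, Tlr4, was not among them, at 1417 without LPS and 1213 with it. Its co-receptor Cd14 was at 3849 and 8564, and the adaptor gene Myd88 at 1671 and 3463, so that both were just past 2-fold, with log2 differences of 1.15 and 1.05. The receptors for other microbial products differed more. Tlr3, the sensor of double-stranded RNA, stood at 465 and 2813, a 6.05-fold difference. Tlr2, the lipoprotein receptor, stood at 647 and 2829.5, and its partners Tlr1 and Tlr6 had log2 differences of 1.62 and 1.59. Tlr7, the endosomal receptor for single-stranded RNA, was below 2-fold at 0.51, and Tlr9, the receptor for bacterial DNA, was too dim to compare.

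The NF-kB system, which releases its DNA-binding subunits when inhibitor proteins are degraded and is itself a target of NF-kB, was mostly higher. Of 15 genes compared, 12 passed 2-fold on the higher side and none on the lower side, with a median of 1.81. The 2 largest differences were those of Nfkbiz and Nfkbie. Nfkbiz, which encodes a nuclear co-activator needed for secondary response genes such as Il6, stood at 94.1 without LPS and 1271 with it, 13.5-fold apart. The inhibitor gene Nfkbie stood at 151 and 1557, and the deubiquitinase gene Tnfaip3, which ends signalling, at 306 and 1902. Among the subunits, Relb and Nfkb2, which form the dimer of the non-canonical pathway, were 6.33-fold and 5.75-fold higher. Rela, the main activating subunit, was below the threshold at 0.83, as were the kinase genes Ikbkb (0.32) and Ikbkg (0.35). Nfkbia, the first inhibitor to be resynthesised, was at 4893 without LPS and 10465 with it, a 2.14-fold difference from a high starting level.

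Of 14 IRF, STAT and BATF factors compared, 8 were higher and 1 lower, with a median of 1.05. Batf2, an interferon-induced factor of the AP-1 family, stood at 203 and 2141, and Irf1, which drives interferon and antigen presentation genes, at 579.7 and 4801. Both were more than 8-fold higher. Stat2 and Stat3 were 3.96-fold and 4.02-fold higher, and Irf7, the amplifier of interferon genes, 2.03-fold, from 6118 to 12439. Irf3, which is activated by phosphorylation rather than by synthesis, was level at -0.08. The single lower member was Irf8, a lineage factor of monocytes and dendritic cells, at 1513 and 677.

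Feedback inhibitors lay on both sides. Of 13 compared, 6 were higher and 3 lower, with a median of 0.86. The inhibitors of cytokine receptor signalling Socs3 and Socs1 stood at 432 and 88.3 without LPS and 6579 and 939.5 with it, 15.2-fold and 10.6-fold apart. Dusp1, the phosphatase that switches off p38 and JNK, and Zfp36, which destabilises cytokine mRNAs, were 2.63-fold and 2.17-fold higher. The lower members were Dusp6, the phosphatase of ERK, at 1707 and 301, the ERK pathway inhibitor Spry2 at 266 and 116, and Zfp36l1, a relative of Zfp36, at 875 and 385. Immediate early factors, which serum and growth factors induce within minutes through ERK, included 1 higher and 4 lower of 13, with a median of -0.46 that turned to 0.03 with equal medians. The lower ones were Myc, Egr2 (405 and 109), Egr1 (2175 and 673) and Ier2 (624 and 240.2). The higher one was Junb, at 646 and 2252.

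Most cytokine genes compared were higher 24 h after LPS was added. Of 19 compared, 13 were at least 2-fold higher and 1 lower, with a median of 2.30. With the floor at the 60th percentile 11 of 18 were higher, with a median of 1.32. The calls of members at the floor without LPS, such as Il1a, Il6 and Ifnb1, were fixed by the filter. Both interleukin-1 genes led. Il1a was at the floor without LPS and at 1650.4 with it, at least 43.0-fold higher. Il6, a cytokine that drives the acute-phase response of the liver, was at the floor and at 816, at least 21.3-fold higher, while at 6 h it had stood at 1538. Tnf stood at 319.6 without LPS, 3802 at 6 h and 3535 at 24 h, so that its later level was close to the earlier one. Il10, the main anti-inflammatory cytokine of macrophages, stood at 92.5, 2223 and 1107, lower at 24 h than at 6 h and above the unstimulated array by 3.58 on the log2 scale. Il12b, the shared subunit of interleukins 12 and 23, was at the floor without LPS, at 307 at 6 h and at 63.4 at 24 h, too dim to be compared with the unstimulated array. Ifnb1, the interferon beta gene, was at the floor and at 224, at least 5.85-fold higher, close to its 6 h level of 214. Il15 and Il18, which activate NK and T cells, were 4.93-fold and 3.76-fold higher, and Tnfsf10, the death ligand TRAIL, 15.1-fold. The lower member was the growth factor gene Pdgfb, at 764 and 342. Csf2, Csf3, Il12a and Il23a were at the floor on both arrays.

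The 220 bases upstream of the Il6 start site are shown because the gene went from the floor to a high level. They lie at chr5:30012894-30013113 of GRCm38.p6, plus strand, from RefSeq. The capitals mark the match to the kB consensus, the DNA pattern bound by NF-kB, which begins 44 bases before the start.
Il6: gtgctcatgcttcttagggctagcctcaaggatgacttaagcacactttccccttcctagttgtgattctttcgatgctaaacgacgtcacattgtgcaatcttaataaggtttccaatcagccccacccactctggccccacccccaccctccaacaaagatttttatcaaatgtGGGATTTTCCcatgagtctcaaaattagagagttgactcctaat

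Of 22 cytokine receptor genes compared, 9 were higher and 2 lower, with a median of 0.72. Il15ra, which presents interleukin-15 to neighbouring cells, stood at 64.3 without LPS and 1780.3 with it, 27.7-fold higher, alongside its ligand. Csf3r, the receptor of the neutrophil growth factor G-CSF, stood at 241, 548 and 1706 at 0, 6 and 24 h, highest at the last time. Tnfrsf1b, the second TNF receptor, was 4.87-fold higher, and the receptor genes of interleukins 4, 10 and 13, Il4ra, Il10ra and Il13ra1, 2.73-fold, 2.91-fold and 3.19-fold. Both TGF beta receptor genes were lower, Tgfbr1 at 1992 and 932 and Tgfbr2 at 1925 and 949.6. Csf1r, through which M-CSF keeps macrophages alive, was within 2-fold at 11313 and 9251.

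Chemokines for T and NK cells differed most among the secreted attractants. Of 18 chemokine genes compared, 9 passed 2-fold on the higher side and none on the lower side, with a median of 1.01. All 3 ligands of the receptor CXCR3 were among the 20 largest increases. Cxcl9 stood at 47.0 without LPS and 2039 with it, and Cxcl10 at 511 and 12396, 43.4-fold and 24.3-fold apart. Ccl22, a ligand of the chemokine receptor CCR4, was 9.91-fold higher at 442. Of the neutrophil attractants, Cxcl1 was 3.45-fold higher and Cxcl2 4.06-fold. The attractants of monocytes were level, Ccl2 at 11527 and 10488 and Ccl7 at 10144 and 8434, as were Ccl3 (0.00) and Ccl4 (0.47). Ccl5 was already at 7558 without LPS and reached 12268, a log2 difference of 0.70.

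The upstream bases of Cxcl10 are shown because the gene is among the 20 largest increases and the sequence holds several of the motifs searched. They lie at chr5:92348890-92349109 of GRCm38.p6, minus strand, from RefSeq. From left to right, the capitals mark a match to the core of the interferon-stimulated response element (ISRE, written GAAA, any 2 bases and GAAA), which begins 213 bases before the start, and matches to the kB consensus at 159 and 103 bases.
Cxcl10: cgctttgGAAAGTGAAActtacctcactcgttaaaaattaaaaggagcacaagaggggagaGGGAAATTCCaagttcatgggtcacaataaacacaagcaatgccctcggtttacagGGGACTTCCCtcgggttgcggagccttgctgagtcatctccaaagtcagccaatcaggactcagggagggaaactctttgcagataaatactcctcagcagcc

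Of 10 receptors for chemokines and other attractants, 4 were higher and 3 lower, with a median of 0.35 that was -0.05 with intensities as deposited. Besides Fpr2, the higher ones were Ccrl2, a non-signalling receptor that binds chemerin, at 143 and 3572, Gpr84, a receptor for medium-chain fatty acids, at 231 and 2266, and Hcar2, the niacin receptor, at the floor and 198. The lower ones were C5ar1, the receptor of the complement fragment C5a, at 1807 and 450.1, Cxcr4 at 425 and 142, and Ccr3 at 259 and 128. The formyl peptide receptor and the C5a receptor, which both guide phagocytes, thus stood on opposite sides.

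Genes induced by type I interferon were among the higher genes. Of 30 antiviral effectors compared, all 30 had a difference above 0, 18 were at least 2-fold higher and none was 2-fold lower, with a median of 1.21. The higher count was 13 with intensities as deposited (median 0.92) and 26 with equal medians (1.67). Oasl1, a translational inhibitor of Irf7, stood at 669 without LPS and 7731 with it, and the Mx GTPase genes Mx1 and Mx2, which block viral replication, at 1061 and 133 without LPS and 9806 and 1515 with it. These 3 were more than 9-fold higher. Many others started from a high level on the unstimulated array. Ifit1 stood at 2704 and 11205, 4.14-fold apart, Rsad2, the gene of viperin, at 5920.1 and 16117, and Ifit3 at 7179 and 13443. Ifitm3, which blocks viral entry from endosomes, stood at 15887 and 18535, a log2 difference of 0.22 near the top of the intensity scale. Of 13 interferon-inducible GTPases and Schlafen genes, 12 were higher and none was lower, the median being 2.22. Slfn4 stood at 587 and 8079, 13.8-fold apart, and Iigp1, a GTPase that attacks the vacuoles of intracellular parasites, at 1320.2 and 11000.4. Gbp3 and Gbp6, guanylate-binding proteins of the same defence, were 7.08-fold and 6.81-fold higher.

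Some antigen presentation genes of each class were higher, and on the normalised scale used here most were within 2-fold. With equal medians 8 of 15 class I and 6 of 9 class II genes were higher, and with intensities as deposited 4 and 1. Of 15 class I genes, 6 were higher and none was lower, the median being 0.67. They were the peptide transporter genes Tap2 (585 and 3439) and Tap1 (1057 and 4458), the 3 immunoproteasome subunits Psmb9, Psmb10 and Psmb8, at 3.74-fold, 2.78-fold and 2.03-fold, and H2-M3, which presents formylated peptides, at 2.57-fold. The class I heavy chain H2-K1 and its light chain B2m were level, with log2 differences of 0.07 and 0.01. The constitutive proteasome was level as well, with 0 of 31 subunits higher, 1 lower and a median of 0.12 that was -0.22 with intensities as deposited. Class II genes had a different course. Of 9 compared, 3 were higher and none was lower, the median being 0.86 at 24 h (1 higher, 1 lower and 0.27 with intensities as deposited), while at 6 h the median over 9 was -0.70. H2-Eb1 stood at 605 without LPS, 356 at 6 h and 1425 at 24 h, and H2-Ab1 at 928, 575 and 2089. Cd74, the chaperone that guides class II molecules, stood at 2851, 1367 and 5667, just below the threshold at a log2 difference of 0.99. Ciita, the master regulator of class II genes, was at the floor without LPS and at 116 at 24 h, at least 3.02-fold higher.

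Of 16 costimulatory and checkpoint ligands, 9 were higher and 1 lower, with a median of 1.83. Cd40, through which helper T cells activate macrophages, stood at 117 without LPS, 9655 at 6 h and 5186 at 24 h. The T cell costimulator Cd86 stood at 751, 3006 and 4273, higher at the later time, while Cd80, its relative, was level at -0.30. The inhibitory ligand Cd274, also called PD-L1, stood at 1557 and 7558, 4.85-fold apart, and Cd200, a ligand that restrains macrophages, at 187 and 1411. Ligands that activate and ligands that inhibit T cells were thus both among the higher genes. The lower member was Vsir, which encodes the checkpoint protein VISTA, at 771 and 301.

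**Figure D2:**
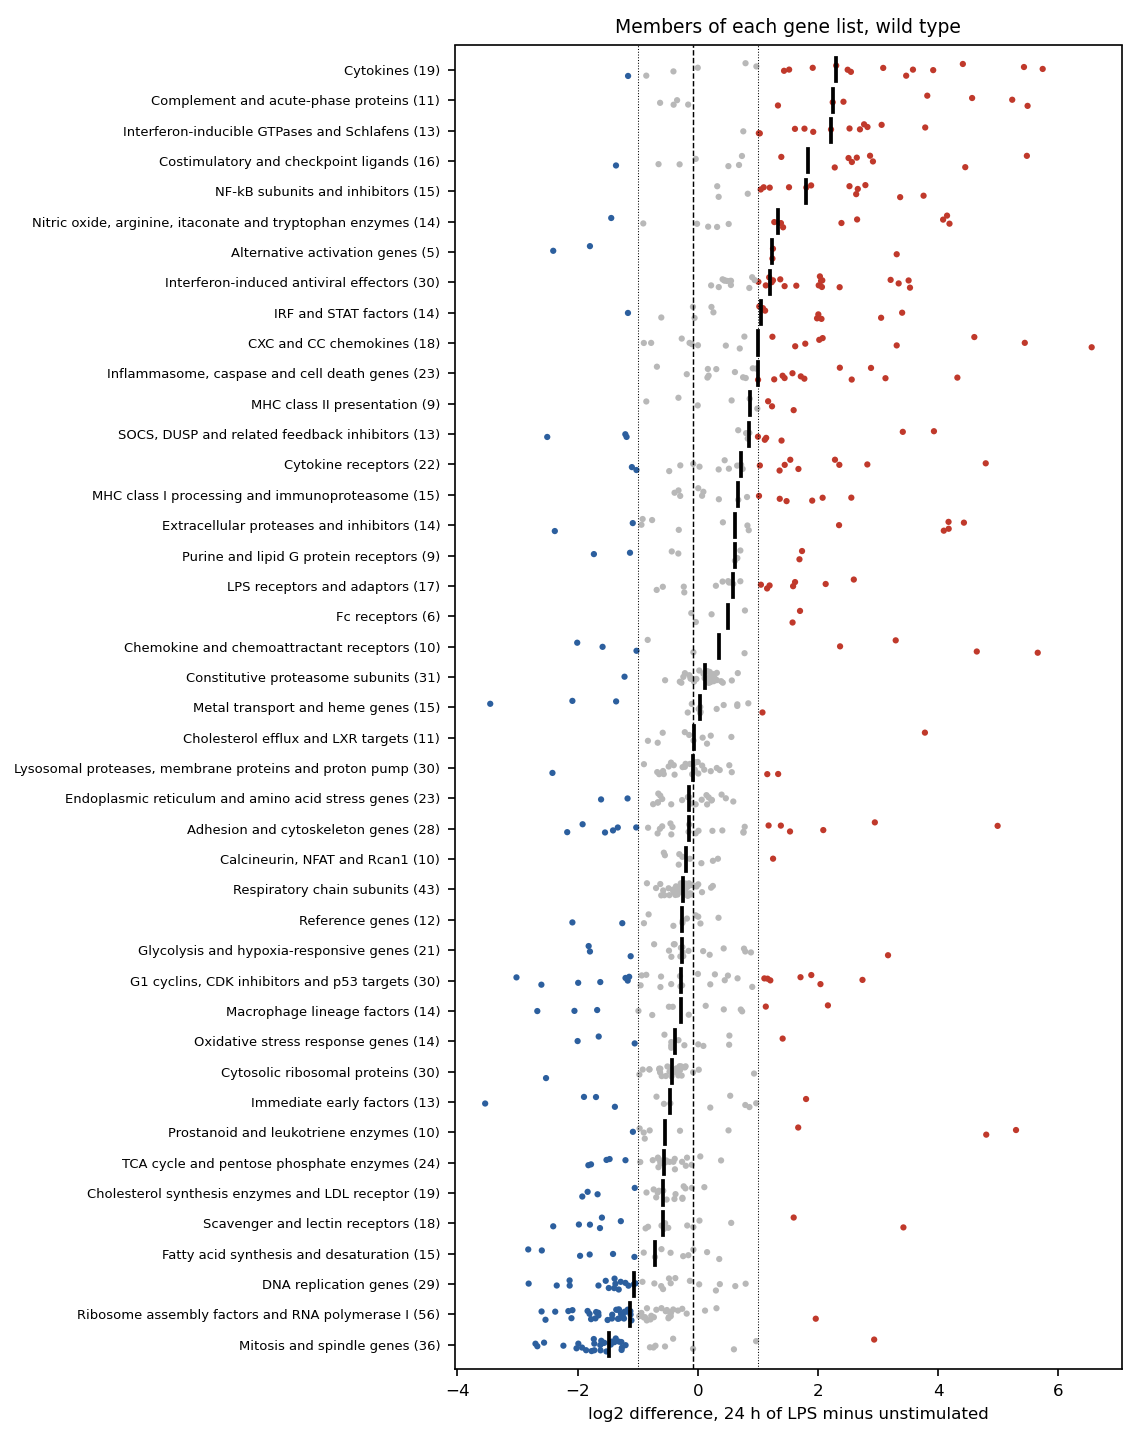
Log2 difference between the array after 24 h of LPS and the unstimulated array for every compared member of 42 gene lists and of 1 list added after values were seen (ribosome assembly factors and RNA polymerase I), with the number compared in parentheses; points are genes (red at least 2-fold higher, blue at least 2-fold lower), thick bars list medians, dotted lines 2-fold and the dashed line the median of all genes. Cytokines (median 2.30), acute-phase proteins (2.25, or 0.67 with the floor at the 60th percentile) and interferon-inducible GTPases (2.22) stand at the top, and DNA replication (-1.06), ribosome assembly (-1.13) and mitosis (-1.48) at the bottom.

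Enzymes that make lipid mediators lay on both sides. Of 10 compared, 3 were higher and 1 lower, with a median of -0.55. The lower count was 0 with equal medians and 6 with intensities as deposited, a setting that put 31.1% of all compared genes on the lower side. The 3 higher genes lie on the route to prostaglandin E2. Pla2g4a, which frees arachidonic acid, stood at 389 and 1239, and Ptgs2, the inducible cyclooxygenase, at the floor and 1068. Ptges, the terminal synthase, stood at 69.1 and 2711. Ptges was higher at 24 h than at 6 h (657), Ptgs2 lower (1612). Of the genes for other products, Lta4h for leukotriene B4 lay at -1.08 and Tbxas1 for thromboxane at -0.97. Hpgds for prostaglandin D2 lay at -0.90 and Alox5ap for leukotrienes at -0.88. Lta4h alone of these passed 2-fold.

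Among enzymes of nitric oxide, arginine, itaconate, superoxide and tryptophan, 8 of 14 were higher and 1 lower, with a median of 1.33 that was 0.51 over 13 genes with the floor at the 60th percentile. Nos2, the inducible nitric oxide synthase, was at the floor without LPS and at 699 with it, at least 18.2-fold higher. Acod1, which makes the antibacterial metabolite itaconate, stood at 629, 10967 and 11146 at 0, 6 and 24 h and had thus reached its level by 6 h. Slc7a2, the arginine importer that feeds Nos2, stood at 64.4 and 1091, and Gch1, which makes the cofactor of Nos2, at 1606 and 4191. Of the arginases, Arg2, the mitochondrial form, was at least 6.28-fold higher, while Arg1, the form of alternative activation, was at the floor on both arrays. Sod2, the mitochondrial superoxide dismutase, was 5.24-fold higher. The lower member was Oat, an enzyme of ornithine breakdown, at 1191 and 439, and Odc1, the first enzyme of polyamine synthesis, lay just short of 2-fold at -0.91. Srm, the next enzyme of that route and one of the 20 largest decreases, stood at 795 and 128.

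Of 11 acute-phase and complement genes compared, 7 were higher and none was lower, the median being 2.25, and 9 of the 11 were brighter at 24 h than at 6 h. The median was 0.67 over 10 genes with the floor at the 60th percentile, and 1.02 over 14 when every gene above the floor was compared. Saa3, a serum amyloid A gene expressed outside the liver, stood at 423 without LPS, 6260.3 at 6 h and 15887 at 24 h. Cfb, complement factor B of the alternative pathway, stood at 79.7, 748 and 3575. Lcn2, which captures bacterial iron-binding siderophores, was at the floor and then at 388 and 908, and Cp, the copper ferroxidase ceruloplasmin, at the floor, 241 and 541. All 4 were higher at 24 h than at 6 h. Hamp, which encodes the iron hormone hepcidin, ran the other way, at the floor, 1095 and 182. The C1q chains C1qa, C1qb and C1qc, which macrophages make constitutively, were within 2-fold, at -0.63, -0.16 and -0.34. Lcn2 and S100a8 are also made by neutrophils, whose 9 markers summed to 921 before and 799 after LPS with 6 of them at the floor on both arrays.

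The upstream bases of Saa3 are shown for comparison with Cxcl10, since both hold the ISRE core. They lie at chr7:46715677-46715896 of GRCm38.p6, minus strand, from RefSeq, and the capitals mark that core, which begins 125 bases before the start.
Saa3: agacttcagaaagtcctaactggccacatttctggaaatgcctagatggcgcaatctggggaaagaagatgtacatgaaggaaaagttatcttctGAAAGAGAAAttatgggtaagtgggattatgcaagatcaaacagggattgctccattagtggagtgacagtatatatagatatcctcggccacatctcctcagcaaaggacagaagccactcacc

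**Figure D3:**
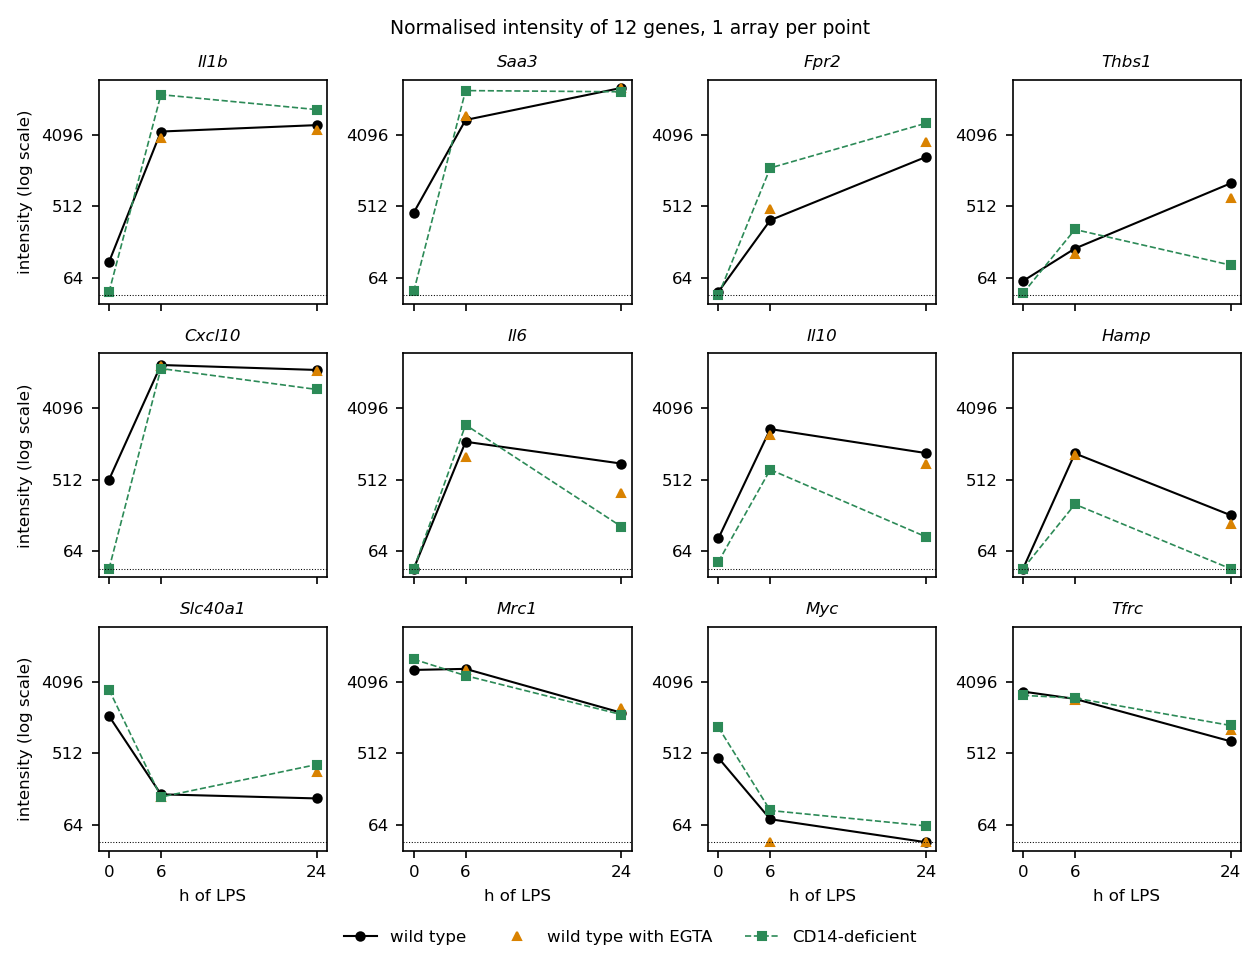
Normalised intensity (log scale) of 12 genes against hours of LPS in wild-type cells (black), wild-type cells with EGTA (orange) and CD14-deficient cells (green), 1 array per point, with the dotted line at the floor of 38.4. In wild type, Saa3, Fpr2 and Thbs1 are higher at 24 h than at 6 h, Il6, Il10 and Hamp are lower at 24 h than at 6 h, and Mrc1 and Tfrc are near their unstimulated level at 6 h and below it at 24 h.

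Surface receptors for uptake lay on both sides. Of 18 scavenger and lectin receptors, 2 were higher and 6 lower, with a median of -0.58. Mrc1, the mannose receptor, stood at 5738 without LPS, 5920.1 at 6 h and 1656 at 24 h, so that its decrease lay between the later times. Clec7a, the receptor for fungal beta-glucan called dectin-1, stood at 5131 and 1662, Clec4n, dectin-2, at 1654 and 548, and Clec10a, a galactose-binding lectin, at 235 and 44.4. Havcr2, the receptor TIM-3, was 3.94-fold lower. The exceptions were Clec4e, or Mincle, which senses mycobacterial glycolipid, at 1179 and 12632, and Axl, which clears dying cells, at 365 and 1104. Of 6 Fc receptors compared, the inhibitory Fcgr2b (2151 and 6992) and the activating Fcgr4 (2757 and 8226) were higher and none was lower, with a median of 0.51.

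The transcription factors of the lineage included 2 higher and 3 lower of 14, with a median of -0.28. Cebpa, a factor of myeloid differentiation, stood at 1235 without LPS, at the floor at 6 h and at 194 at 24 h, while Cebpb, which serves inflammatory genes, stood at 2556, 6198 and 5600.3. The 2 members of this pair thus lay on opposite sides. Pparg, a regulator of lipid handling, stood at 323 and 78.0, and Bhlhe40 at 619.8 and 194. Nr1h3, the oxysterol receptor LXR alpha, was the largest increase of the list, at 169.7, 199 and 761, with little difference at 6 h. Spi1, the gene of the master factor PU.1, was within 2-fold at 0.72. Of the genes of alternative activation, 5 could be compared, of which Ccl22, Tgm2 and Ccl17 were higher and Mrc1 and Clec10a lower.

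A receptor gene for iron uptake and the gene for its export were both lower. Of 15 genes of metal transport and heme, 1 was higher and 3 lower, with a median of 0.04 that was -0.29 with intensities as deposited. The lower ones were Slc40a1, the exporter, Tfrc, the transferrin receptor for uptake, at 3059.7, 2473 and 721 at 0, 6 and 24 h, and Aco1, the iron regulatory protein 1, at 1823 and 711. Slc40a1 had reached its low level by 6 h (154) and Tfrc had not. Heme oxygenase Hmox1 and the ferritin heavy chain Fth1 were level at 0.02 and 0.05. The metallothionein Mt2, which binds zinc, stood at 1027, 8446 and 1621, high at 6 h and back below 2-fold at 24 h. The zinc exporter Slc30a1 was the higher gene, at 132 and 279.

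Most genes of central metabolism were within 2-fold at 24 h. Of 21 glycolysis and hypoxia genes, 1 was higher and 3 lower, with a median of -0.26 that was 0.30 with equal medians, while at 6 h 7 of 21 had been at least 2-fold higher (background at 6 h 10.5% higher and 9.5% lower). Pfkfb3, which makes the activator of the committed step of glycolysis, stood at 184, 1384 and 1647 and was the gene that remained high. The glucose transporters Slc2a1 and Slc2a3 had log2 differences of -0.24 and -1.79, and Pdk1, which keeps pyruvate out of mitochondria, stood at 758 and 216. Of 24 enzymes of the TCA cycle and pentose phosphate pathway, 5 were lower and none was higher, the median being -0.56. The lower genes included 3 isocitrate dehydrogenases, the mitochondrial Idh2 at 542 and 154, Idh3a, of the NAD-dependent enzyme, at 1183 and 346, and the cytosolic Idh1 at 2613 and 912. Fumarase, Fh1, was 2.76-fold lower and transketolase, Tkt, 2.30-fold. The subunits of the succinate dehydrogenase complex were not called, with Sdha at -0.41 and Sdhb at 0.04. Of 43 respiratory chain subunits none was 2-fold apart in either direction, and their median was -0.24, or 0.18 with equal medians.

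Among lipid synthesis genes none was 2-fold higher, and most were within 2-fold. Of 15 genes of fatty acid synthesis and desaturation, 6 were lower and none was higher, the median being -0.71. With the floor at the 60th percentile 3 of 15 were lower, with a median of -0.45. Scd2, a desaturase that makes monounsaturated fatty acids, stood at 4625, 2424 and 655 at 0, 6 and 24 h, Fasn, fatty acid synthase, at 340.1, 201 and 56.3, and Fads1, a desaturase of polyunsaturated fatty acids, at 1050.4, 355 and 270.4. All 3 were lowest at 24 h. Scd1, the closest relative of Scd2, was level at -0.07. Of 19 genes of cholesterol synthesis and its control, 4 were lower and none was higher, the median being -0.57, and 18 of the 19 lay below 0. Dhcr7, the last enzyme of the pathway, stood at 391 and 103 and Sqle, squalene epoxidase, at 1794 and 504. The rate-setting enzymes upstream were below 2-fold, with Hmgcs1 at -0.65. Ch25h, which makes the regulatory oxysterol 25-hydroxycholesterol, was the exception among 11 genes of cholesterol efflux and oxysterols, at 103, 1283 and 1409.6. The exporters Abca1 and Abcg1 were within 2-fold at 0.15 and 0.56.

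Of 14 genes of the oxidative stress response, 1 was higher and 3 lower, with a median of -0.38 that was 0.08 with equal medians. Gclc and Gclm, the subunits of the enzyme that limits glutathione synthesis, were both lower, at 215 and 53.7 and at 667 and 322, and catalase was lower as well. The higher member was Keap1, the inhibitor of the NRF2 pathway, at 555 and 1476. Of 23 genes of endoplasmic reticulum and amino acid stress, 2 were lower and none was higher, the median being -0.14 that was 0.07 with equal medians. Hspa5, the chaperone BiP, was level at -0.03, and Ddit3, the stress factor CHOP, was at 0.59.

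Most of the cell division genes compared were lower. Of 29 DNA replication genes compared, 16 passed 2-fold on the lower side and none on the higher side, with a median of -1.06. Rrm2, the regulatory subunit of the enzyme that supplies deoxynucleotides, stood at 777, 217 and 111 at 0, 6 and 24 h. Dut and Tk1, of nucleotide supply, and Pola1, of DNA polymerase alpha, were 5.08-fold, 4.38-fold and 4.38-fold lower. The genes of the replicative helicase Mcm2, Mcm3, Mcm5, Mcm6 and Mcm7 were lower by 2.05-fold to 2.62-fold, while Mcm4 was just short of 2-fold at -0.92. Pcna and Lig1 were at -0.58 and -0.61. Of 36 mitosis and spindle genes, 27 were lower and 1 higher, with a median of -1.48. Both counts depend on the floor. With the floor at the 60th percentile the lower mitotic genes numbered 6 of 22 (median -0.61) and the lower DNA replication genes 8 of 25 (median -0.69). Cdc20, an activator of the anaphase-promoting complex, stood at 274, 118 and 42.2, the spindle checkpoint kinase gene Bub1 at 306, 236 and 48.1, and the mitotic cyclin Ccnb2 at 341, 586 and 84.4. The mitotic genes were still near their starting level at 6 h, when 4 of 36 were 2-fold lower, and 33 of 36 were dimmer at 24 h than at 6 h. The DNA replication genes were earlier, with 11 of 29 lower at 6 h. The higher mitotic gene was Tpx2, a spindle assembly factor, at 259, 1268 and 1982, opposite to the genes with which it is usually transcribed.

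Upstream sequences of 2 mitotic genes are shown, because matches to the CCAAT box (CCAAT, bound by NF-Y) and to the cell cycle genes homology region (CHR, TTTGAA) stand close together in one and repeat in the other. Both are from RefSeq, GRCm38.p6, on the minus strand, at chr4:118437344-118437563 for Cdc20 and chr11:40733438-40733657 for Hmmr, a spindle protein at 226 without LPS and at the floor with it. Capitals mark the CCAAT box on either strand and, in Cdc20, the CHR, which begins 18 bases before the start.
Cdc20: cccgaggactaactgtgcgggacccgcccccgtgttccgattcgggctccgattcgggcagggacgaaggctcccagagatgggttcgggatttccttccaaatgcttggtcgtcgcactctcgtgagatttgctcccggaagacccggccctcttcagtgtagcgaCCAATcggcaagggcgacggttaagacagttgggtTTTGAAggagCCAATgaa
Hmmr: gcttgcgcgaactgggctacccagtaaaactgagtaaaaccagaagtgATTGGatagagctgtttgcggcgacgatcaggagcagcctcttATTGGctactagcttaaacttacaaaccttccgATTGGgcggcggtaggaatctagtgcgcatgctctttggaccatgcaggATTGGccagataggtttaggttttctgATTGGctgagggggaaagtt

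G1 cyclins, CDK inhibitors and p53 targets did not share a direction, with 7 higher and 7 lower of 30 and a median of -0.27. The GADD45 stress genes divided. Gadd45b and Gadd45g, targets of NF-kB and cytokine signals, stood at 513 and 714 without LPS and 3428 and 2937 with it, whereas Gadd45a, the classical p53 target of the family, stood at 1547, 134 and 191 at 0, 6 and 24 h, one of the 20 largest decreases. Sesn1, another p53 target, stood at 1283, 61.9 and 211. The p53 target and inhibitor Mdm2 was 2.16-fold higher and Cdkn1a, the target p21, was within 2-fold at -0.61. Of the D cyclins, which M-CSF induces to start the cycle, Ccnd2 was 3.70-fold higher and Ccnd1 lay at -0.86, while Ccne2, a cyclin of S phase entry, stood at 281 and 70.7.

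Genes for making ribosomes were also among the lower genes. Myc is known to activate such genes, and its part here was not tested. This list of assembly factors and RNA polymerase I subunits was added after values were seen, when Wdr12 and Ppan appeared among the largest decreases, and its direction is therefore a description. Of 56 compared, 31 were at least 2-fold lower and 1 higher, with a median of -1.13, and 53 lay below 0. With the floor at the 60th percentile 20 of 49 were lower, with a median of -0.79. With intensities as deposited 50 of 56 were lower, a setting that put 31.1% of all compared genes on the lower side. Wdr12, of the complex that processes the large subunit, stood at 356, 76.9 and 58.8 at 0, 6 and 24 h, Gar1, of the pseudouridylation complex, at 404, 201 and 69.9, and the helicase gene Ddx21 at 551, 183 and 124. The abundant nucleolar proteins nucleolin, Ncl, and nucleophosmin, Npm1, stood at 4368 and 4004 without LPS and 1839.6 and 1493 with it. The exception was Rcl1, at 128 and 501. The ribosomal proteins themselves had a median of -0.43 over 30, or 0.15 with equal medians, and 1 of them, Rpl12, was called lower, on a probe set that read 221 without LPS and the floor with it. Of 12 reference genes, Hprt (2841 and 1190.3) and Tfrc were lower and none was higher. Actb was level at -0.03 and Gapdh at -0.25.

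Of 23 genes of inflammasomes, caspases and cell death, 12 were higher and none was lower, the median being 1.00. Fas, the death receptor, stood at 50.9 without LPS and 1016 with it, Casp4, the sensor of LPS inside the cell (caspase-11 in mice), at 591 and 5146, and Nlrp3, the sensor of the main inflammasome, at 174 and 595. The survival genes Birc3 and Cflar were 5.90-fold and 3.28-fold higher, and Casp8 itself was 2.00-fold higher. Genes that promote and genes that restrain cell death were therefore both in the higher set. Pycard, the adaptor ASC, was level at 0.17.

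Of 14 extracellular proteases and inhibitors, 5 were higher and 2 lower, with a median of 0.62. Mmp14, a membrane-bound collagenase, stood at 123 without LPS and 2655 with it, and Timp1, an inhibitor of such enzymes, at 51.8 and 934. Thbs1, the matrix protein thrombospondin 1, stood at 58.1, 149 and 992 at 0, 6 and 24 h. Serpinb2, an inhibitor of plasminogen activators, was at the floor at 0 and 6 h and at 693 at 24 h, at least 18.1-fold higher, and with EGTA at 24 h it read 88.5. Plaur, the receptor of urokinase, was 2.12-fold lower. Among 28 adhesion and cytoskeleton genes, 6 were higher and 6 lower, with a median of -0.15 that was 0.38 with equal medians and 0.03 with equal trimmed means. Vcam1, the ligand of the integrin VLA-4, was at the floor without LPS and at 275 and 1218 at 6 and 24 h, and Marcksl1, an actin regulator, stood at 1004 and 7740.1. Rhob, a small GTPase of endosomes, and the integrin Itga6 were 4.50-fold and 3.77-fold lower. Vcam1, Timp1 and Thbs1 are also expressed by stromal and endothelial cells, whose 12 markers summed to 590 before and 1514 after LPS, the highest of the 8 arrays. Kdr (133 and 854), Dcn (floor and 192) and Acta2 (73.4 and 99.5) made up most of the difference, while Col1a1, Col3a1 and Pdgfrb were at the floor on both arrays, and the part of such cells in the adhesion and protease results was not tested.

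Lysosomal genes were mostly within 2-fold. Of 30 proteases, membrane proteins and proton pump subunits, 2 were higher, 1 was lower and the median was -0.08, or 0.29 with equal medians. The exceptions were the cathepsins Ctsc and Ctsh, 2.53-fold and 2.23-fold higher, and Atp6v0a1, a proton pump subunit, at 2467 and 462. Of 9 receptors for purines and lipids, 2 were higher and 2 lower, with a median of 0.62 that was -0.37 with intensities as deposited. P2ry14, the receptor for UDP-glucose, stood at 1162 and 3754, and Cnr2, the cannabinoid receptor of immune cells, at 464, the floor at 6 h and 140.0. Of 10 genes of calcineurin and NFAT, the pathway the study was designed around, 1 was higher and none was lower, the median being -0.19 that was 0.05 with equal medians. The higher gene was Nfat5, the member of the family that calcineurin does not control, at 81.1 and 193. Rcan1, a calcineurin inhibitor induced by NFAT, stood at 356, 1311 and 449.7 at 0, 6 and 24 h.

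The response at 24 h differed in composition from that at 6 h, which was measured against the same unstimulated array, so that the 2 comparisons share it. Of the 20 genes with the largest increases at 24 h, all 20 were also at least 2-fold higher at 6 h and 15 were at least as high at 24 h. Those with the clearest late gain were Fpr2 (339.9 at 6 h and 2136 at 24 h), Thbs1, Cfb, Ptges and Saa3. Of the 10 with an unstimulated value at the floor, 9 were 2-fold higher at 6 h, Serpinb2 being the exception, and 7 were at least as high at 24 h. Of the 20 largest decreases, 17 were 2-fold lower at 6 h and 16 were at least as low at 24 h. The lists that stood lower at 24 h than at 6 h were led by mitosis, with a median difference between the arrays of -1.22, and cholesterol synthesis with -0.82. Class II presentation had the opposite course, with 1.55.

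CD14-deficient cells gave a separate pair of arrays at the same time point, sharing none with the wild-type pair. In that pair 573 genes of 6908 were higher (8.29%) and 606 lower (8.77%). Over the 7141 genes compared in either genotype, the wild-type set of higher genes held 742, that of CD14-deficient cells 583, and 400 were in both, which is 53.9% of the wild-type set and 68.6% of the other. For lower genes the counts were 751, 608 and 319, or 42.5% and 52.5%. All 20 of the largest wild-type increases and 17 of the 20 largest decreases passed 2-fold in the same direction in CD14-deficient cells. Opposite calls were made for 4 genes, Cd83, Socs2, Tpx2 and Phlda3. Scd2 (8079 and 7017), Rgs18 (1967 and 1067) and Wdr12 (344 and 226) were the decreases not matched there.

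Several lists had unlike medians in the 2 genotypes, and these differences were not tested. Antiviral effectors had a median of 1.21 in wild type and 3.09 in CD14-deficient cells, with 18 and 28 of 30 at least 2-fold higher, and the GTPases and Schlafens 2.22 and 3.95. The wild-type count of 18 depends on the scale, being 13 with intensities as deposited and 26 with equal medians. The count in CD14-deficient cells was not taken under these scalings. The starting levels differed. Of the 30 antiviral effectors, 28 were at least 2-fold lower in unstimulated CD14-deficient than in unstimulated wild-type cells, as were 12 of the 13 GTPases and Schlafens, against 3.19% of all genes compared at 24 h in wild type. So were 8 of 18 chemokines, 6 of 16 costimulatory and checkpoint ligands, 6 of 15 class I and 5 of 9 class II genes. Ifit1 stood at 67.5 without LPS and 7835 at 24 h in CD14-deficient cells, against 2704 and 11205 in wild type, so that the final levels were closer than the starting ones. DNA replication and mitosis genes had medians of -2.22 and -2.36 in CD14-deficient cells against -1.06 and -1.48. Their starting levels differed too, with medians 0.66 and 0.70 higher on the log2 scale in unstimulated CD14-deficient than in unstimulated wild-type cells, while the median of all genes was 0.00 apart. There 5 of 29 and 4 of 36 were at least 2-fold higher, against 1.02% of all genes. Ribosome assembly genes went the other way, with a median of -0.17 and 2 of 57 lower in CD14-deficient cells against -1.13 and 31 of 56 in wild type. Wild-type cells with EGTA, whose comparison shares the unstimulated array, had 21 of 56 lower at 24 h and a median of -0.84 (background with EGTA 10.9% higher and 12.1% lower). Myc was lower in both genotypes, at 1082 without LPS and 61.7 at 24 h in CD14-deficient cells, against 445 and the floor in wild type.

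**Figure D4:**
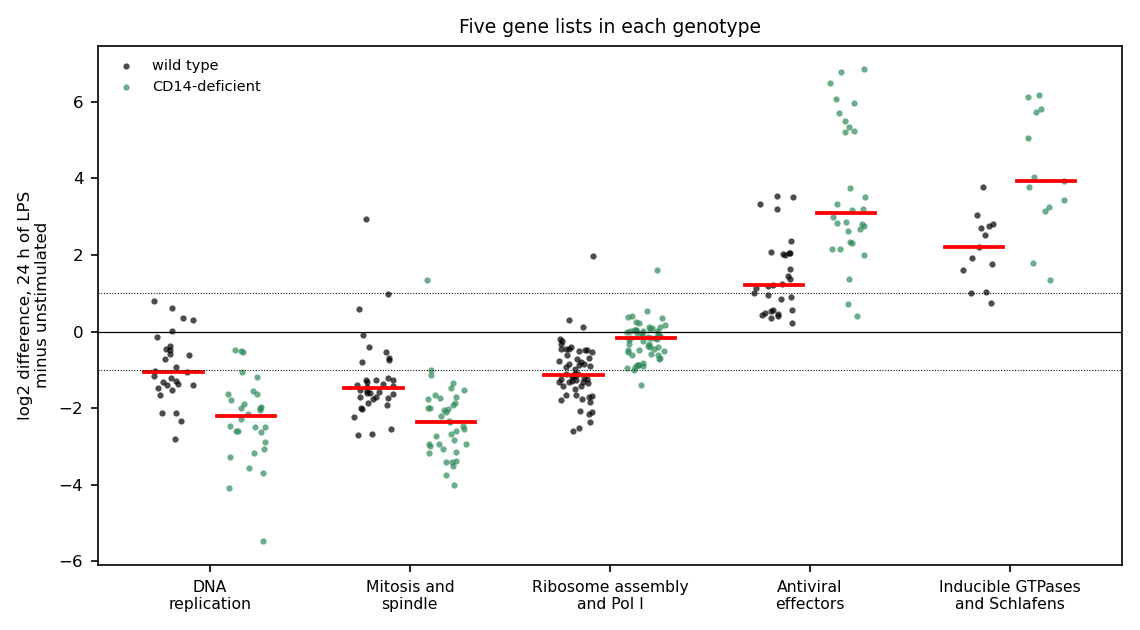
Log2 difference between 24 h of LPS and the unstimulated array of the same genotype for the compared members of 5 gene lists in wild-type (black) and CD14-deficient (green) cells, with red bars at the medians and dotted lines at 2-fold. Antiviral effectors lie higher in CD14-deficient cells (median 3.09 against 1.21), cell division lists lie lower in them (mitosis -2.36 against -1.48), and ribosome assembly genes lie near 0 in them (-0.17) and near -1.13 in wild type.

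Promoter sequences were compared by the letters they hold, as a description with no test. Promoters were taken as the 250 bases before the RefSeq start site, both strands were searched, and genes with exactly 1 such window were used, 444 of the 740 higher genes, 503 of the 742 lower genes and 3575 of the 5483 others. The ISRE core was found in 7.66% of higher, 2.69% of other and 1.79% of lower promoters, against 3.07% of all compared and 3.11% of all 22862 RefSeq genes with 1 window. The kB consensus was found in 7.88%, 3.97% and 3.78%. The TATA box (TATAAA) was found in 10.1%, 5.73% and 5.96%, and in 11 of the 52 promoters of genes at least 8-fold higher, or 21.2%. The CHR was found in 14.7% of lower and 9.85% of other promoters, and the CCAAT box in 41.6% and 37.2%. The E2F sites TTTCCCGC and TTTGGCGC were found in 3.58% and 3.08%. Over all 22862 RefSeq genes with 1 window the shares were 3.70% for the kB consensus, 13.6% for the TATA box and 16.7% for the CHR. Those of the CCAAT box and the E2F sites were 34.7% and 1.35%. The TATA box in the 2-fold higher set and the CHR in the lower set were thus below the share over all RefSeq genes. At least 10 CG dinucleotides were present in 60.6% of higher promoters, 36.5% of those at least 8-fold higher, 82.7% of lower and 81.7% of other promoters. The share was 79.7% of all compared genes and 37.4% of all RefSeq genes with 1 window, so that only the compared genes exceed the higher sets. A match describes letters and is not a bound site, and a stretch that fits more than 1 motif was counted for each.

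Within lists the shares were larger and rest on few genes. The ISRE core was found in 7 of 17 promoters of antiviral effectors (41.2%) and in 5 of 9 of the GTPases and Schlafens (55.6%). The kB consensus was found in 4 of 9 NF-kB system promoters (44.4%) and in 4 of 12 chemokine promoters (33.3%). The CCAAT box was found in 21 of 29 mitotic promoters (72.4%), 13 of 21 DNA replication promoters (61.9%) and all 13 cholesterol synthesis promoters. The CHR was found in 10 of 29 mitotic promoters (34.5%) and 1 of 21 DNA replication promoters (4.76%). E2F sites were found in 1 of 29 (3.45%) and 4 of 21 (19.0%). The CHR was not particular to the cell division lists. It was found in 5 of 9 promoters of the GTPases and Schlafens (55.6%), a larger share than in mitotic promoters. It was also found in 3 of 12 chemokine promoters and 1 of 17 promoters of antiviral effectors. The CCAAT box was likewise found in 5 of 9 promoters of the GTPases and Schlafens. The AP-1 site (TGANTCA) was found in 7 of 52 promoters of genes at least 8-fold higher (13.5%), Cxcl10, Il6, Il1a and Fas among them. Its share was 4.05% of all compared genes and 6.96% of all RefSeq genes with 1 window.

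**Figure D5:**
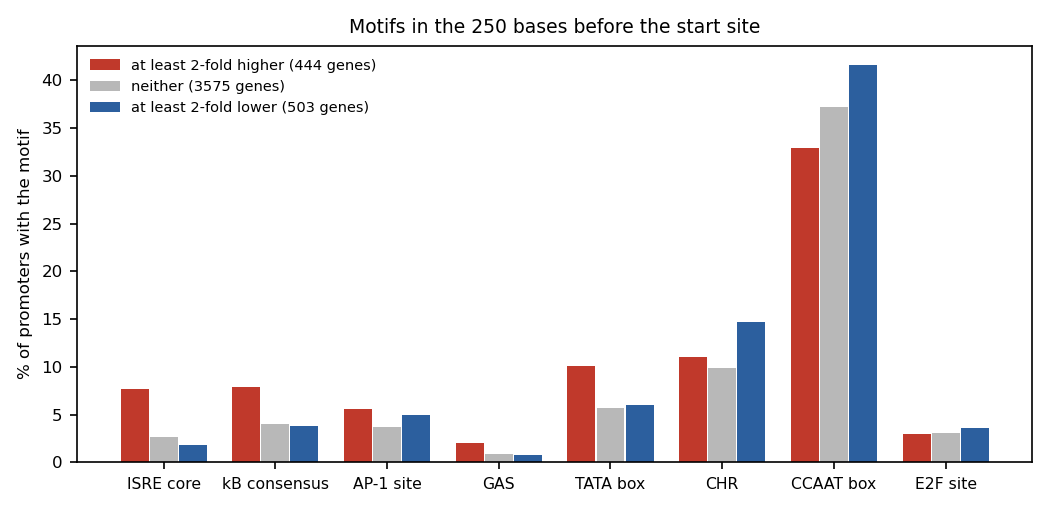
Percent of promoters (250 bases before the start site) that hold each of 8 motifs, for genes at least 2-fold higher at 24 h of LPS (red, 444 genes), neither (grey, 3575) and at least 2-fold lower (blue, 503); bars are shares with no error. Of the sets shown, the ISRE core (7.66% against 2.69% and 1.79%), the kB consensus and the TATA box (10.1%) are most frequent in higher genes. The CHR (14.7%) and CCAAT box (41.6%) are most frequent in lower genes. Over all RefSeq genes with 1 window, not shown, the TATA box was found in 13.6% and the CHR in 16.7%.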

How the data were processed

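Total RNA of 8 macrophage cultures was hybridised to 8 Affymetrix arrays, 1 per group. Per the submitters' processing notes the authors computed the deposited intensities with MAS5, of which no version is named. A common scaling target, detection calls and the genome build of the array are not given in the sources used here. The deposited values are linear intensities of 22690 probe sets. Of these 20393 had 1 gene in the platform annotation, 691 had several and 1606 were not listed, and 20364 were matched by gene identifier to RefSeq (GRCm38.p6).

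The intensities were quantile normalised over the 8 arrays, raised to a floor at the 40th percentile (38.4) and converted to log2. For the 4958 genes with several probe sets the one brightest on average stood for the gene. A gene was compared where the brighter of its 2 arrays lay above the overall median (88.2). A difference of at least 2-fold was called, and a fold with 1 array at the floor is a lower bound. Levels of different genes were not compared. The 42 gene lists held 1003 genes, of which 871 were on the array, 132 are not analysed here and 758 were compared. Members, lists and rules were chosen with earlier results of these data known, and 1 list of ribosome assembly genes was added after values were seen. A list is described by its counts and median, with floored genes at their bound. Named genes were the 20 largest differences and the 10 largest bounds in each direction, members of lists and genes whose promoter held a motif. Groups were taken from the sample titles. No test was made, since each group had 1 array. Promoter windows of 250 bases before the start were read from RefSeq and searched for 11 motifs. Calls were checked on simulated data. Alternatives were the scaling, the floor, the choice of probe set and the intensity required. Python 3.11.15, numpy 2.4.6 and pandas 2.3.3 were used.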

Additional observations from a re-analysis of the deposited data

Results flagged for a closer look

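In 4 genes the 24 h response was at least 2-fold in opposite directions in the 2 genotypes, with 1 array in each group, and the difference was not tested. Cd83, an activation marker, had a log2 difference of 1.39 in wild type (283 and 742) and -1.33 in CD14-deficient cells (534 and 212). Tpx2, the spindle gene, had 2.93 in wild type (259 and 1982) and was just past 2-fold lower in CD14-deficient cells (376 and 188). Socs2, a cytokine signal inhibitor, had 1.00 in wild type (109 and 218) and at least 3.14-fold lower values in CD14-deficient cells (121 and the floor). Phlda3, a p53 target, had -1.20 in wild type (605 and 263) and 1.10 in CD14-deficient cells (259 and 553). With EGTA the wild-type levels at 24 h were 747 for Cd83, 2021 for Tpx2, 141 for Socs2 and 488 for Phlda3.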

How the results depend on the processing

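The counts of 740 higher and 742 lower genes moved with the scale and the filters. They were 365 and 2199 of 7064 compared genes with intensities as deposited. When the brighter array had to exceed the 75th percentile they were 455 and 362, of only 3932 compared in place of 6965. With the floor at the 60th percentile 521 genes were higher and 429 lower, of 5913 compared. Under the other 7 alternatives both counts stayed within 1.5 times the reported ones. Of the 60 genes with the largest differences and bounds, all 60 kept their sign under 9 of 10 alternatives and 58 with the floor at the 60th percentile, where Kit and Ppan were at the floor on both arrays. Sizes were less steady. Only 47 of the 60 were still compared and called 2-fold with the floor at the 60th percentile, where 43 differences moved by more than 1.5 times, and 45 with the 75th percentile. The median of the 5 alternative activation genes, 1.24, was -0.27 over 2 genes with the 75th percentile, when 3 genes dropped out, and -0.18 over 7 genes with every gene above the floor, when 2 entered. With intensities as deposited 13 TCA cycle and pentose phosphate genes, 10 cholesterol synthesis genes and 10 fatty acid synthesis genes were lower, in place of 5, 4 and 6, and 3 LPS receptor genes were higher in place of 7, while 31.1% of all compared genes were lower and 5.17% higher. No paired analysis was possible because each group had 1 array, and for the same reason no replicate could be left out. Values near the floor limit the folds, and no detection calls were at hand.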

Other observations

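Several of the largest differences lay outside the gene lists. Car2, a carbonic anhydrase, stood at 44.8 without LPS and 853 after 24 h, and at 368 with EGTA. Traf1, an adaptor of TNF receptors and a target of NF-kB, stood at 93.8 and 1599, and Glipr2 at 69.4 and 1276. Hdc, which makes histamine, was at the floor and at 727, at least 19.0-fold higher, and the unnamed transcript BC023105 at the floor and 1201. All 5 were at least 2-fold higher in CD14-deficient cells too.

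Among the decreases outside the lists, Ivns1abp, an actin-binding protein that also binds influenza NS1, stood at 1446 and 168, Gask1b at 2595 and 339, and Cd28, best known as a T cell costimulatory receptor, at 2746 and 435. Of the T and NK cell markers measured, 9 of 10 were at the floor on both arrays. Rgs18, a brake on G protein signals, stood at 1897 and 271, and Cdc42ep3, an effector of the GTPase Cdc42, at 368 and the floor. Kit, the receptor of stem cell factor, stood at 171 and the floor, while 8 other markers of erythroid and mast cells were at the floor on both arrays. Slc1a5, a glutamine transporter, was at 182 and the floor.

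With EGTA, 24 h of LPS gave lower levels than LPS alone for several genes of the response. Ptges stood at 2711 without and 1106 with EGTA, Slc7a2 at 1091 and 419, Timp1 at 934 and 394, and Il6 at 816 and 349.7. Scd2 went the other way, at 655 and 1863, as did Cxcr4 at 142 and 916. These genes were chosen after their values were seen, each value is a single array, and the differences were not tested.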
